A study of Homo sapiens with 4 samples.

Results

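The genes described here are 9 long noncoding RNA genes known from prostate cancer, chosen by name: PCA3, PCGEM1, SCHLAP1, DRAIC, PCAT1, PCAT14, MALAT1, NEAT1 and MEG3. They are 9 of the 18866 long noncoding RNA genes that GENCODE release 44 places on the autosomes, X and Y. Each gene was taken with its body and 50 kb on either side, and all intervals called accessible there were described, 189 of the 149676 in the C4-2B list and 146 of the 118728 in the C4-2BER list. Open chromatin was mapped with ATAC-seq, where a transposase inserts adapters into accessible DNA, in 2 libraries of C4-2B cells and 2 libraries of C4-2BER cells. C4-2B is a prostate adenocarcinoma line that expresses the androgen receptor, and no treatment is given for it. C4-2BER, labelled C4-2B_Enza_Resist, is the line with neuroendocrine features that the study derived from C4-2B and kept in the androgen receptor antagonist enzalutamide, so drug exposure, selection and drift of the derived line cannot be told apart. The labels give the same RPMI medium for both. The libraries of a line were merged before intervals were called, so each line has 1 list, the values have no replicate error, and no difference between the lines was tested. RNA from these genes was not analysed here.

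Long noncoding RNAs are transcripts without a long reading frame. Several of these genes are used in prostate pathology or studied for a role in the disease. PCA3 RNA is the basis of a urine test for prostate cancer. PCGEM1 was described as a prostate-specific transcript. SCHLAP1, PCAT1 and PCAT14 take their names from an association with prostate cancer. DRAIC is named as an RNA downregulated in androgen-independent cells. MALAT1 and NEAT1 are abundant nuclear RNAs of nearly every cell type. MALAT1 lies in nuclear speckles and NEAT1 is the scaffold of paraspeckles. MEG3 is a maternally expressed transcript of an imprinted locus.

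Reads at an interval are the deduplicated reads piled up at its strongest summit, recovered from the deposited values, and the rank percentile is the place of the interval by −log10 p in its own list, with 100 the strongest. Recovered depths were 30.2 M (C4-2B) and 25.2 M (C4-2BER) reads, and the median interval held 29 and 23 reads. An interval that touched an interval of the other list over 1 bp or more was shared, and one that did not was line-only. For a shared pair, relative reads are the depth-scaled C4-2BER reads over the depth-scaled C4-2B reads, divided by the median of that ratio over all 91168 shared pairs (0.900). The exact 95% interval given with a ratio covers counting error only. A start-site window is 2000 bp on either side of any annotated start of the gene. As a check on the lines, the lineage genes KLK3, KLK2 and TMPRSS2 of the luminal programme and CHGA, SYP, ENO2 and NCAM1 of the neuroendocrine programme each had an interval in a start-site window in both lists, so presence of an interval alone did not separate them. The rank was higher in C4-2BER for ENO2 (77.8 and 90.7) and NCAM1 (58.6 and 77.6).

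The sites on which the description turns most are shown here from hg38, forward strand, as 151 bp centred on the summit. They were chosen after their values were seen. In their labels, less accessible means relative reads below 1, and no difference was tested. Capitals mark matches to a short motif: TGANTCA of AP-1, CAGCTG of an E-box, or a loose androgen response element made of the half-sites GNACA and TGTNC with 3 bases between them. In the PCA3 sequence the capital is the base of the canonical start site. These and the other motifs given later were searched on both strands, every match to the strict androgen response element is also a loose one while the other motifs are not contained in one another, and a match is a description of letters and not a bound site.
SCHLAP1 start site, chr2:180692447-180692597, less accessible in C4-2BER: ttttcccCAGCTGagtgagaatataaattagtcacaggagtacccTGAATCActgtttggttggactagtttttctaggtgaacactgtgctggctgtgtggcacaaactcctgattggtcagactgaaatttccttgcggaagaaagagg
PCA3 canonical start site, chr9:76704704-76704854, an interval of C4-2BER only: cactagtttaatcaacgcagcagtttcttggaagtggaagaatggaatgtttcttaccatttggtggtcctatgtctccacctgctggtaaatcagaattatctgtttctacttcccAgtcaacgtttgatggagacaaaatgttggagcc
DRAIC internal start site, chr15:69692449-69692599, the lowest ratio of any shared pair in the 9 windows: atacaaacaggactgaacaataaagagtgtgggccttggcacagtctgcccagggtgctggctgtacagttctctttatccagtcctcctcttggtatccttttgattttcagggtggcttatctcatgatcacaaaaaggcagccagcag
DRAIC intron, chr15:69587879-69588029, an interval of C4-2B only: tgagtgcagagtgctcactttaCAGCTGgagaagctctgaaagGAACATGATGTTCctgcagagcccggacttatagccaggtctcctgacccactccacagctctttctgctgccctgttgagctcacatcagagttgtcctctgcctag
DRAIC intron, chr15:69615704-69615854, an interval of C4-2B only: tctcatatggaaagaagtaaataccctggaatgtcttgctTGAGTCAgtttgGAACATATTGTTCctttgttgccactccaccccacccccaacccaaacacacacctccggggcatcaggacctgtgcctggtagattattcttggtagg
MEG3 upstream flank, chr14:100768913-100769063, less accessible in C4-2BER: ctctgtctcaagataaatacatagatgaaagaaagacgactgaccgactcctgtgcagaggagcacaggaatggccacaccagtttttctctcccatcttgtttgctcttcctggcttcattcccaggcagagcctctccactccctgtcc

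To see how the surroundings of each gene differed between the lines, the accessible intervals were first counted. The C4-2B list held more intervals than the C4-2BER list at 6 of the 9 genes, fewer at PCAT14 (8 and 11) and as many at MALAT1 (21 and 21), while PCGEM1 had none in either list. Over all long noncoding RNA windows, 64.3% held more C4-2B intervals and 17.7% fewer. The numbers in C4-2B and C4-2BER were 30 and 20 for PCA3, 18 and 7 for SCHLAP1, 39 and 35 for DRAIC, 45 and 34 for PCAT1, 24 and 22 for NEAT1, and 13 and 6 for MEG3. With equal numbers of top intervals taken from each list, the difference (C4-2BER minus C4-2B) went from −10 to −1 at PCA3, from −4 to −1 at DRAIC, from 0 to 4 at MALAT1 and from −2 to 2 at NEAT1. It went from −11 to −8 at SCHLAP1, from −11 to −7 at PCAT1, from −7 to −3 at MEG3 and from 3 to 4 at PCAT14. SCHLAP1 and MEG3 had no more than 50% as many intervals in C4-2BER, 2 of the 7 member windows with at least 10 C4-2B intervals. The share over all long noncoding RNA windows with at least 10 C4-2B intervals was 7.16%. Both counts are from the full lists, which differ in length. With equal numbers of top intervals SCHLAP1 still met the 50% mark and MEG3 did not, and the share over all windows was not computed that way. The MALAT1 and NEAT1 windows overlap on chromosome 11 and share intervals, and together they held 36 and 33.

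**Figure D1:**
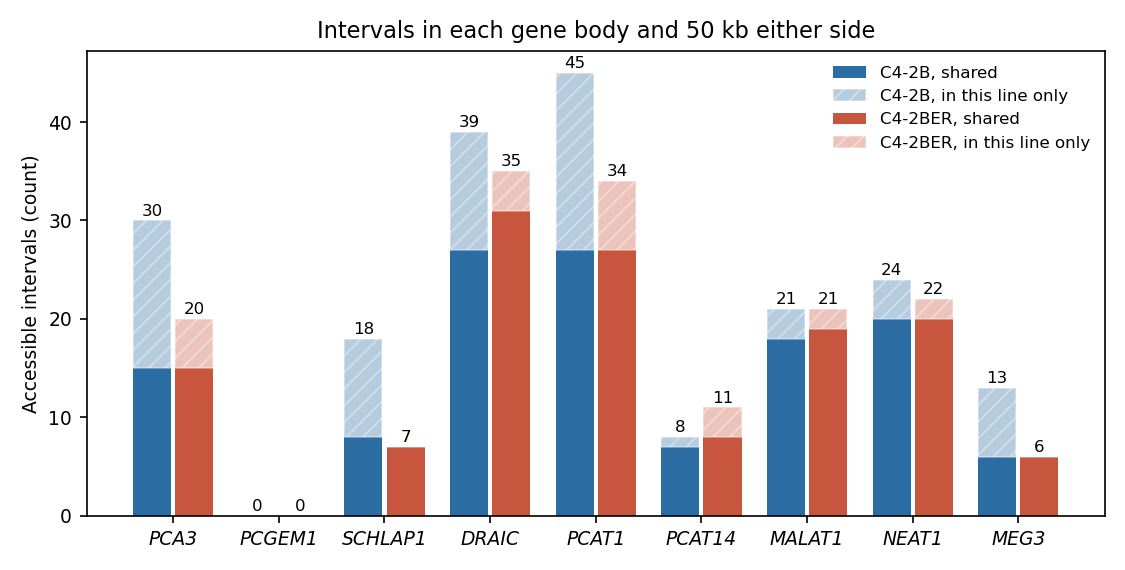
Number of accessible intervals in each gene body and 50 kb either side, for C4-2B (blue, left bar) and C4-2BER (red, right bar), with shared intervals solid and intervals of that line only hatched. SCHLAP1 (18 and 7) and MEG3 (13 and 6) had the lowest number in C4-2BER relative to C4-2B, with no C4-2BER-only interval, and PCGEM1 is empty in both lines.

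Of the 189 C4-2B intervals, 69 had no counterpart in C4-2BER, 36.5% (Wilson 95% interval 30.0 to 43.6), against 37.7% of all C4-2B intervals. Of the 146 C4-2BER intervals, 22 had none in C4-2B, 15.1% (10.2 to 21.8), against 20.8% of all. For the genes together, these shares were therefore near those of the lists as a whole. Single genes were spread on both sides of that level. The C4-2B-only share was 55.6% (33.7 to 75.4) at SCHLAP1, 53.8% (29.1 to 76.8) at MEG3 and 50.0% (33.2 to 66.9) at PCA3, and it was 16.7% (7.87 to 31.9) in the joined MALAT1 and NEAT1 windows. The intervals for the first 3 reach down to the share of the whole list, and that for MALAT1 and NEAT1 lies below it. In C4-2BER, 0 of 7 SCHLAP1 intervals and 0 of 6 MEG3 intervals were line-only, with Wilson 95% upper bounds of 35.4% and 39.0%. Line-only intervals were weak compared with shared intervals. In C4-2B their median was 22 reads against 69.5 for shared intervals, and their highest rank was 73.4 against 99.7. In C4-2BER their median was 22.5 reads against 43. The same medians over the whole lists were not computed, so this cannot be read as a trait of these genes.

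The intervals were then divided by their place in the windows. In C4-2B, 12 of 41 intervals in start-site windows were line-only (29.3%), as were 33 of 76 in introns (43.4%), 10 of 32 in the upstream flanks and 11 of 33 in the downstream flanks. In C4-2BER the numbers were 5 of 37 in start-site windows (13.5%), 11 of 54 in introns (20.4%), 4 of 27 upstream and 2 of 25 downstream. Exons held 7 and 3 intervals. Shares by place over the whole lists were not computed, so the differences between places cannot be read as a trait of these genes. The large numbers in start-site windows come mostly from DRAIC, with 69 annotated starts, and PCAT1, with 31, where 16 and 13 of the C4-2B intervals fell in such a window.

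The reads at shared pairs were compared next. Over the 118 shared pairs, relative reads were lower in C4-2BER by at least 1.5-fold at 35 (29.7%) and higher by at least 1.5-fold at 5 (4.24%), against 22.0% and 12.0% of all pairs. Without centring, the numbers were 43 lower and 4 higher, against 27.5% and 7.85% of all pairs. The exact interval lay below 1 at 33 pairs (28.0%) and above 1 at 7 (5.93%), against 16.4% and 10.8% of all pairs. None of the 35 lower pairs lay in the MALAT1 and NEAT1 windows. Of the 29 pairs there, 2 were lower by 1.5-fold without centring and 2 when centred on the pairs with most reads. Their median ratio was 1.09, which fell below 1 under other scalings of the reads (0.982 without centring and 0.936 centred on the pairs with most reads). The other 89 pairs had a median of 0.773, and 35 of them (39.3%) were lower. By gene, the median ratio was 0.587 at PCA3 (10 of 15 pairs lower), 0.617 at SCHLAP1 (4 of 7), 0.791 at PCAT1 (10 of 27), 0.869 at DRAIC (8 of 27), 0.869 at MEG3 (2 of 6), 1.05 at NEAT1 (0 of 19, and 0.948 without centring), 1.20 at MALAT1 (0 of 18) and 1.27 at PCAT14 (1 of 7). Without MALAT1 and NEAT1, 7 of 24 pairs in start-site windows were lower (29.2%) and 28 of 65 outside them (43.1%). The shares of all pairs by place were not computed, so this difference cannot be set against them.

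**Figure D2:**
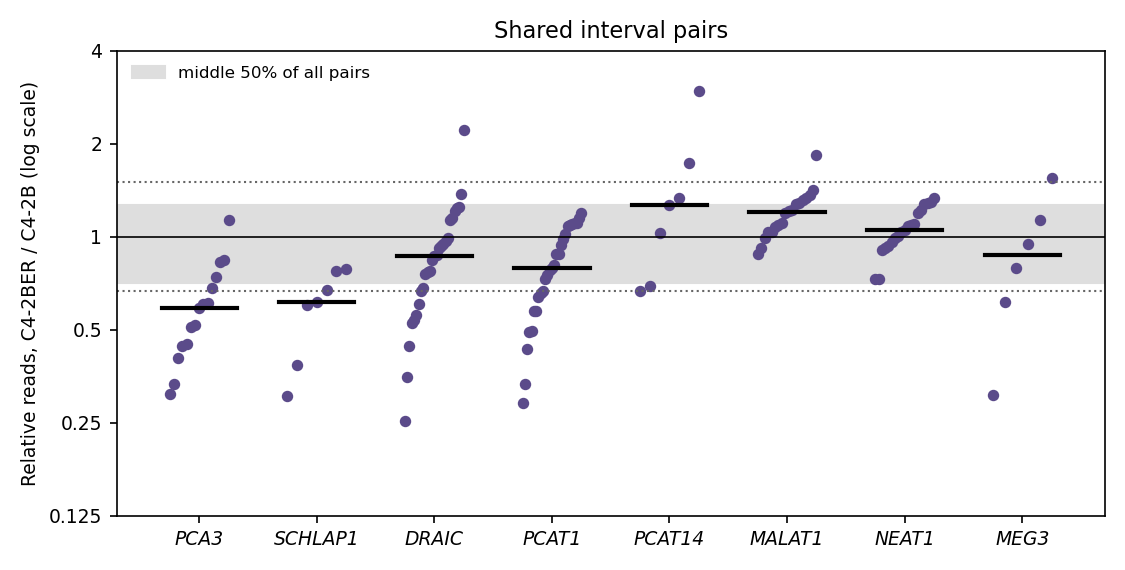
Relative reads (C4-2BER over C4-2B, centred on all shared pairs, log scale) of every shared interval pair in the window of each gene. Points are pairs, black bars are medians, the grey band holds the middle 50% of all pairs (0.710 to 1.27) and dotted lines mark 1.5-fold, with PCA3 and SCHLAP1 medians (0.587 and 0.617) below the band and the 29 MALAT1 and NEAT1 pairs, as centred here, all above the lower dotted line.

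The next question was whether the start sites were accessible. A start-site window held an interval in both lists at 8 of the 9 genes and in neither at PCGEM1. Over all long noncoding RNA genes, 42.1% had such an interval in both lists, 6.79% in C4-2B only, 4.51% in C4-2BER only and 46.6% in neither. A gene with more annotated starts has more windows, and the member genes have from 1 start (SCHLAP1) to 69 (DRAIC). The share over genes with as many starts was not computed, so 8 of 9 cannot be read as a trait of these genes. The canonical start itself was covered at 4 genes in C4-2B (SCHLAP1, DRAIC, PCAT1 and MALAT1) and at 6 in C4-2BER (these and PCA3 and NEAT1), against 23.2% and 24.3% of all long noncoding RNA genes. The rank of the strongest start-site interval was lower in C4-2BER by at least 10 points at SCHLAP1 and PCAT14, 2 of 8 genes, against 15.5% of the 7946 long noncoding RNA genes with an interval in both lists. It was higher by at least 10 points at PCA3 alone among the 8, against 15.3%. The median change in rank was −1.27 points over the 8 genes and 0.38 over the 7946. The strongest interval can be a different site in each list, as it was at DRAIC.

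**Figure D3:**
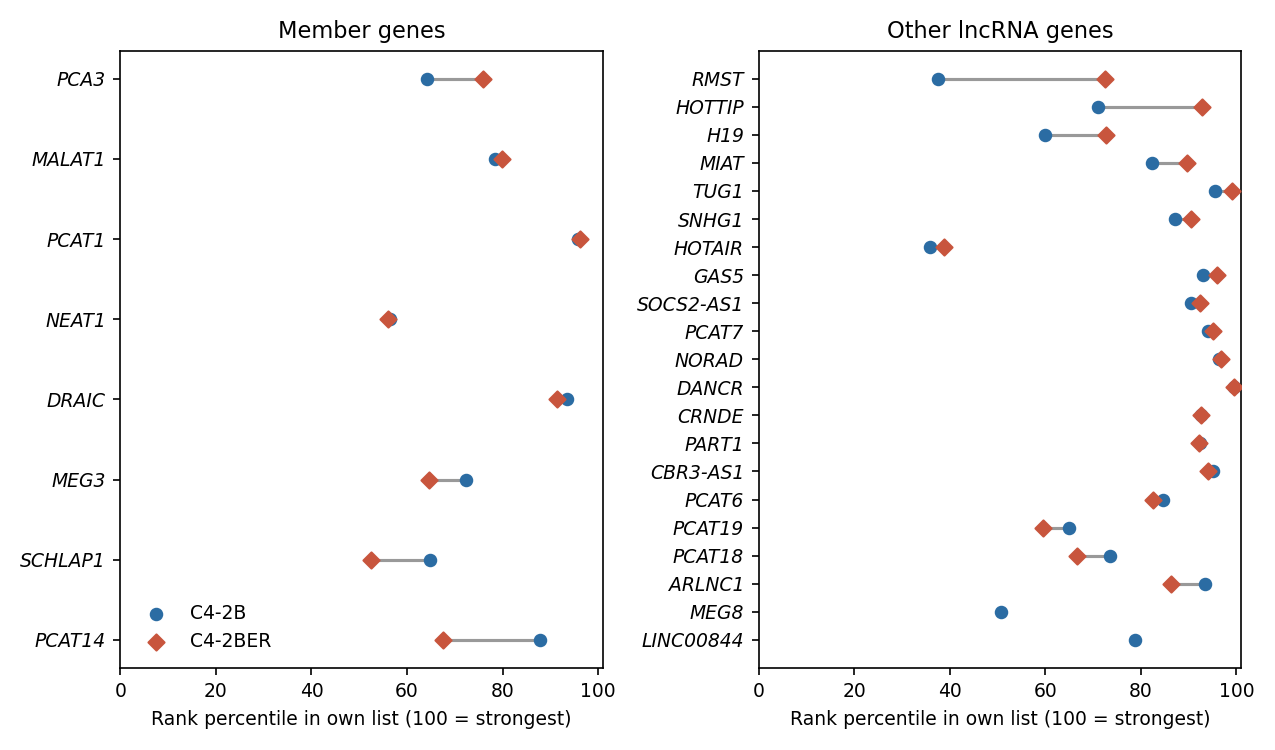
Rank percentile of the strongest interval in a start-site window in C4-2B (blue circles) and C4-2BER (red diamonds), for the 8 member genes that have one (left) and 21 other long noncoding RNA genes (right). PCAT14 (87.8 and 67.5) and SCHLAP1 (64.7 and 52.5) had the largest decreases, while PCA3 (64.3 and 75.9) had the largest increase among the 8.

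At PCA3 (ENSG00000225937.3, chr9:76691980-76863307, forward strand), which lies inside the protein-coding gene PRUNE2 on the opposite strand, the start and the body differed. The canonical start was covered in C4-2BER only, by an interval at chr9:76704480-76704938 with 21 reads and rank 56.6. In C4-2B the nearest interval lay 4678 bp away and held 19 reads (rank 25.6). The start given by RefSeq lies farther into the body. Its promoter (250 bases before to 50 after the start) met no interval of either list, with the nearest 19865 bp away in C4-2B and 7917 bp away in C4-2BER. The strongest start-site interval in both lists lay within 2000 bp of an internal start, at chr9:76810404-76810891, and held 40 reads in C4-2B against 34 in C4-2BER, a ratio of 1.13 (0.694 to 1.83). This was the only PCA3 pair with a ratio above 1.

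Outside the start-site windows, all 14 PCA3 pairs had ratios below 1. The strongest in C4-2B, in an intron at chr9:76799162-76800317, held 163 reads in C4-2B against 75 in C4-2BER, a ratio of 0.612 (0.459 to 0.809), and its rank was 96.1 and 90.2. Another intron interval at chr9:76827488-76828333 held 68 and 23 reads, a ratio of 0.450 (0.268 to 0.731). The upstream interval at chr9:76646335-76646820 held 43 and 10 reads, a ratio of 0.309 (0.139 to 0.625). The exact interval of the ratio lay below 1 at 10 of the 15 pairs and above 1 at none. The median local background of the window was also lower in C4-2BER (2.27 and 1.10 times the lowest of the list). At the pair of 163 and 75 reads it was 7.48 and 2.88 times. The fold over it was higher in C4-2BER there (9.26 and 11.9). The fold was lower at the intron pair of 68 and 23 reads (8.04 and 6.63) and the upstream pair (9.02 and 3.83). With local background subtracted, the median ratio was 0.573 (10 of 15 lower). Whether the whole region or single sites changed was not tested. In C4-2BER the PRUNE2 promoter beyond the end of the gene ranked highest (91.0). The strongest C4-2B-only interval (chr9:76793054-76793707, intron) held 59 reads at rank 65.3, and the strongest C4-2BER-only interval (chr9:76658558-76658914, upstream) held 38 reads at rank 72.6.

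PCGEM1 (ENSG00000227418.6, chr2:192749845-192776899, forward strand) had no interval in its body or within 50 kb in either list, a state shared by 2.10% of long noncoding RNA genes. The nearest upstream interval lay 76777 bp before the gene in C4-2B (28 reads, rank 53.1) and 76757 bp before it in C4-2BER (12 reads, rank 19.2). The nearest downstream interval lay 99864 bp beyond the gene in C4-2B and 163986 bp beyond it in C4-2BER. PCGEM1 was thus without a called site in the parental line as well as in the derived line. A site weaker than the lowest summit in a list (8 reads in C4-2B against 7 in C4-2BER) would not be seen here.

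SCHLAP1 (ENSG00000281131.1, chr2:180692104-180916939, forward strand) has a single annotated start, and that start was covered in both lists. The interval at chr2:180691730-180692696 held 69 reads in C4-2B, and its counterpart held 32 in C4-2BER, a ratio of 0.617 (0.392 to 0.951), and the rank was 64.7 and 52.5. The local background there was also lower in C4-2BER, 5.92 and 3.11 times the lowest of the list in C4-2B and C4-2BER. The fold over that background was 4.92 and 4.84. All 7 SCHLAP1 pairs had a ratio below 1, between 0.306 and 0.784. The strongest interval outside the start in C4-2B was downstream at chr2:180934365-180935566. It held 100 reads in C4-2B against 23 in C4-2BER, a ratio of 0.306 (0.185 to 0.485), and its rank was 92.0 and 58.6. In C4-2BER the strongest interval was in an intron 23219 bp past the start, where 101 reads in C4-2B stood beside 51 in C4-2BER, a ratio of 0.672 (0.470 to 0.949). A further intron pair at chr2:180722534-180723439 held 52 and 15 reads, a ratio of 0.384 (0.201 to 0.692). The 10 C4-2B-only intervals reached no more than 56 reads, and the strongest by rank (chr2:180663788-180664281, 34 reads) stood at 58.3.

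**Figure D4:**
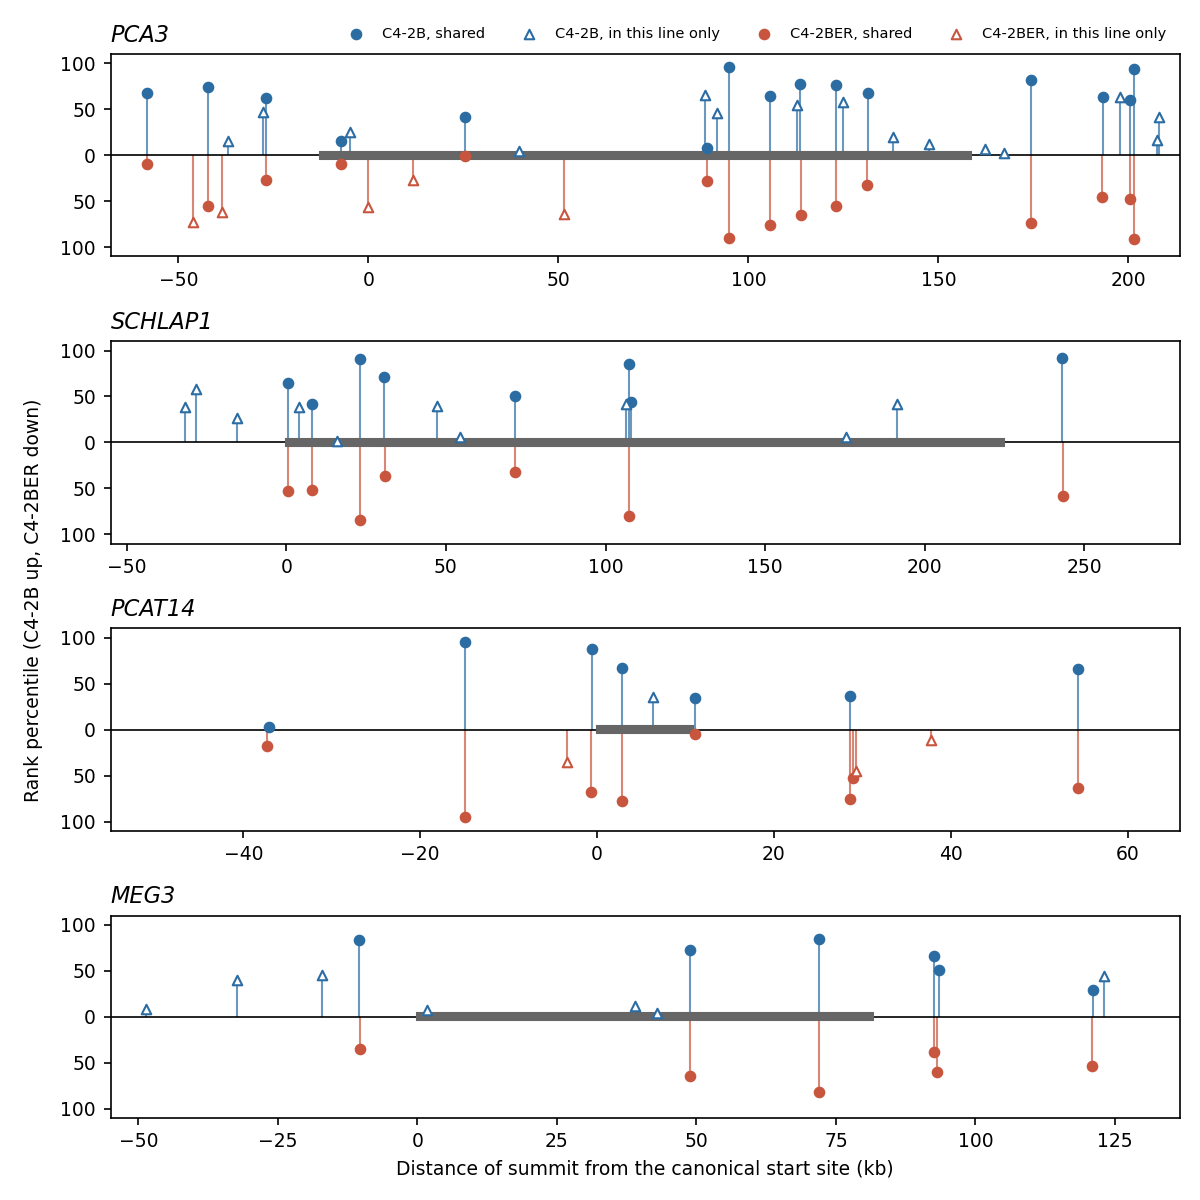
Accessible intervals around PCA3, SCHLAP1, PCAT14 and MEG3, placed by the distance of the summit from the canonical start site in kb, with the rank percentile in the own list drawn upwards for C4-2B (blue) and downwards for C4-2BER (red). Filled circles are shared intervals, open triangles are intervals of that line only and the grey bar is the gene body, and the SCHLAP1 and MEG3 panels hold no open red triangle.

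DRAIC (ENSG00000245750.11, chr15:69462921-69843120, forward strand) had a canonical start covered in both lists, while sites deeper in the gene differed widely. The interval over the canonical start (chr15:69462133-69463185) held 115 reads in C4-2B against 105 in C4-2BER, a ratio of 1.21 (0.923 to 1.60), with ranks of 86.1 and 90.5. The interval over the start given by RefSeq, chr15:69561354-69561761, was weak in both lists, with 22 and 19 reads. At the internal start shown above (chr15:69691974-69692820) there were 100 reads in C4-2B against 19 in C4-2BER, a ratio of 0.253 (0.146 to 0.416), and the rank was 93.4 and 51.1. That site was the strongest start-site interval of DRAIC in C4-2B, whereas in C4-2BER it was an interval within 2000 bp of another internal start, at chr15:69594052-69595414, with rank 91.4 and 139 reads beside 186 in C4-2B. The strongest DRAIC interval by rank in C4-2B, and the strongest of that list in any of the 9 windows, was in an intron at chr15:69474924-69475545. Its 175 reads in C4-2B stood at rank 99.7 and its 71 reads in C4-2BER at rank 88.2, a ratio of 0.540 (0.404 to 0.715). In the opposite direction, an internal start near the end of the gene (chr15:69823227-69823515) held 18 reads in C4-2B against 30 in C4-2BER, a ratio of 2.22 (1.20 to 4.22), the only DRAIC pair that was higher by 1.5-fold. Outside the start-site windows the RPLP1 promoter in the upstream flank ranked highest in C4-2BER (98.3). The strongest C4-2BER-only interval (chr15:69812875-69813319, intron) held 33 reads at rank 73.4.

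The strongest DRAIC interval of C4-2B only was at chr15:69615491-69616145, with 50 reads at rank 73.4. It is the second DRAIC intron sequence shown above and holds an AP-1 match 5 bases before a loose androgen response element. The other C4-2B-only intron site with such an element (chr15:69587739-69588132) held 63 reads at rank 72.9. One more DRAIC site with the element, chr15:69742306-69742783, was shared, with 35 reads in C4-2B against 18 in C4-2BER, a ratio of 0.684 (0.365 to 1.24).

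PCAT1 (ENSG00000253438.5, chr8:126556323-127419050, forward strand) shares its start with the promoter of LRATD2, which is read in the opposite direction, so the start-site interval cannot be assigned to PCAT1 alone. That interval held 199 reads in C4-2B, the most of any interval in the 9 windows, and 163 in C4-2BER, a ratio of 1.09 (0.880 to 1.35), with ranks of 95.7 and 96.1. Of the 27 pairs, that one included, 10 were lower and none was higher by 1.5-fold. The strongest interval outside the start-site windows in C4-2B lay in an intron 657571 bp past the start and held 123 reads in C4-2B against 53 in C4-2BER, a ratio of 0.573 (0.407 to 0.797). In C4-2BER the strongest was in the upstream flank, 47389 bp before the start, with 86 reads in C4-2B against 66 in C4-2BER, a ratio of 1.02 (0.729 to 1.42). At an internal start 369015 bp past the canonical start, 69 reads in C4-2B stood beside 15 in C4-2BER, a ratio of 0.289 (0.154 to 0.510). A second pair at the LRATD2 promoter, chr8:126556376-126557211, held 117 and 64 reads, a ratio of 0.727 (0.528 to 0.995). The internal start at chr8:127013154 was covered in C4-2B only (35 reads, rank 44.7). A pair within 2000 bp of it held 54 and 20 reads, a ratio of 0.493 (0.279 to 0.836). Near another internal start, chr8:126824401-126825181 had a ratio of 1.11 (0.729 to 1.68). The strongest C4-2B-only interval held 38 reads (rank 67.4), and the strongest C4-2BER-only interval held 33 (rank 71.4).

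PCAT14 (ENSG00000280623.1, chr22:23536881-23547797, forward strand) had the largest change of the 9 genes in the rank of its strongest start-site interval. Some single start-site pairs of other genes changed more in rank, in C4-2B and C4-2BER 8.34 and 55.2 beside the canonical NEAT1 start. Such pairs also lay at internal starts of PCAT1 (86.6 and 36.7) and DRAIC (93.4 and 51.1). The PCAT14 interval ends 176 bp before the canonical start in C4-2B and 365 bp before it in C4-2BER, and so covers no annotated start in either list. It held 90 reads in C4-2B against 47 in C4-2BER, a ratio of 0.695 (0.477 to 0.999), and the rank was 87.8 and 67.5. The local background, as a multiple of the lowest background of the list, was 3.35 and 4.11 there in C4-2B and C4-2BER. The other 6 PCAT14 pairs lay on both sides of 1, from 0.665 to 2.96. A downstream interval at chr22:23565284-23565839 held 22 reads in C4-2B against 49 in C4-2BER, a ratio of 2.96 (1.76 to 5.14), the highest of all 118 pairs. The strongest interval of the window, 14923 bp before the start, held 129 and 123 reads, a ratio of 1.27 (0.982 to 1.64), and an intron interval held 55 reads in both lists, a ratio of 1.33 (0.898 to 1.97). Of the line-only intervals, the strongest held 24 reads in C4-2B (rank 35.9) and 29 in C4-2BER (rank 45.6).

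MEG3 (ENSG00000214548.18, chr14:100779410-100861031, forward strand) had little at its canonical start. In C4-2B a C4-2B-only interval of 14 reads lay 1660 bp past it, and in C4-2BER the nearest interval lay 10263 bp upstream. The start given by RefSeq met no interval either, and the strongest start-site interval of both lists lay 1959 bp past it in C4-2B (47 reads, rank 72.4) and 1950 bp past it in C4-2BER (28 reads, rank 64.5), a ratio of 0.792 (0.478 to 1.29). The strongest interval of both lists was in an exon at chr14:100851151-100851651 and holds a match to the core of the CTCF motif. It held 59 and 42 reads, a ratio of 0.947 (0.622 to 1.43), and its rank was 84.1 and 81.6. The upstream site shown above (chr14:100768723-100769332) differed most, with 65 reads in C4-2B against 15 in C4-2BER, a ratio of 0.307 (0.163 to 0.544), and ranks of 83.2 and 35.2. The 7 C4-2B-only intervals held 13 to 30 reads, the strongest by rank at chr14:100762129-100762394 (22 reads, rank 45.5).

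MALAT1 and NEAT1 stood apart from the other genes in the level of the surrounding chromatin. The median local background was 6.90 and 8.23 times the lowest of the list in the MALAT1 window and 19.2 and 11.7 times in the NEAT1 window, against 1.36 over all intervals of either list and at most 3.09 in any other member window. Their median intervals held 95 and 92 reads at MALAT1 and 127 and 109.5 at NEAT1. The rank follows the contrast to the local background and not the reads alone. In the NEAT1 window the median interval was at the 94.1 percentile by reads and the 53.7 percentile by rank in C4-2B, and at 93.2 and 58.1 in C4-2BER.

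At MALAT1 (ENSG00000251562.11, chr11:65497640-65508073, forward strand), the canonical start was covered in both lists by an interval at chr11:65497273-65498007 with 143 reads in C4-2B against 119 in C4-2BER, a ratio of 1.11 (0.860 to 1.42), and ranks of 78.4 and 79.9. An interval over the 3′ end, within 2000 bp of an annotated start, held 191 and 174 reads, a ratio of 1.21 (0.981 to 1.5). A C4-2BER-only interval, chr11:65498985-65499192, covers an internal start with 81 reads at rank 50.2. The strongest interval outside the start-site windows, 9927 bp before the start, held 188 and 173 reads, a ratio of 1.22 (0.990 to 1.51). The only pair that was higher by 1.5-fold lay downstream at chr11:65550944-65551243 with 71 and 98 reads, a ratio of 1.84 (1.34 to 2.53). The strongest C4-2B-only interval held 22 reads at rank 32.1. The promoter is printed here as an example of a start that was covered in both lines. It comes from RefSeq (GRCh38.p14, chr11:65497488-65497787, 250 bases before to 50 after the start), with matches to GGGCGG, the SP and KLF motif, in capitals on either strand.
MALAT1 promoter: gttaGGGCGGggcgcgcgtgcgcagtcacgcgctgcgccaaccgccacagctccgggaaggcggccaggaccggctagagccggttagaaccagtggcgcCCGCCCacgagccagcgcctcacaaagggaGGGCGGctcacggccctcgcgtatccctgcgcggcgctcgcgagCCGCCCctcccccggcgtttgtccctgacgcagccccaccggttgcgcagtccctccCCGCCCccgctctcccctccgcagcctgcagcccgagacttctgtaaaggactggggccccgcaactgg

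The MALAT1 promoter holds 5 such matches, and 45.0% of 35116 RefSeq promoters hold at least 1. RefSeq promoters were found for 5 of the 9 genes.

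At NEAT1 (ENSG00000245532.11, chr11:65422774-65445540, forward strand), reads were high around the start in both lists, and the rank of the site near the canonical start differed widely. In C4-2B the interval began 24 bp past the canonical start and held 137 reads, at the 95.4 percentile by reads, and ranked at 8.34, with a local background of 39.8 times the lowest. In C4-2BER the counterpart covered the start and held 133 reads at rank 55.2 with a background of 32.7 times, a ratio of 1.29 (1.01 to 1.65). The strongest start-site interval by rank was at chr11:65421166-65421510 with 177 and 124 reads, a ratio of 0.932 (0.735 to 1.18), and ranks of 56.5 and 56.0. None of the 19 pairs differed by 1.5-fold in either direction, but 2 were lower by as much without centring, 2 when centred on the pairs with most reads, and 1 was higher with the local background subtracted. The strongest C4-2B-only interval lay in an exon and held 76 reads at rank 26.0, and the strongest C4-2BER-only interval lay 536 bp before the start and held 109 reads at rank 38.1.

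**Figure D5:**
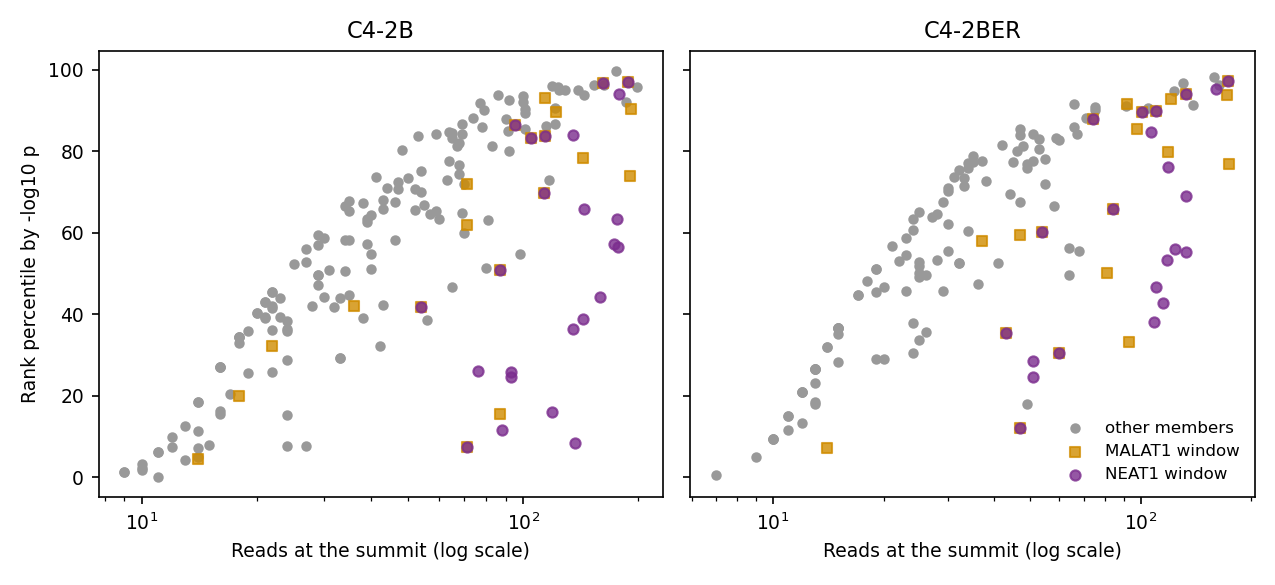
Rank percentile by −log10 p against reads at the summit (log scale) of every interval in the windows of the 9 genes, in C4-2B (left) and C4-2BER (right). Purple circles are the NEAT1 window, orange squares the MALAT1 window and grey points the other members, and many NEAT1 intervals lie to the lower right of the grey points, with the site beside the canonical NEAT1 start in C4-2B at 137 reads and a rank of 8.34.

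The motifs within 100 bp of the summits were counted next. Matches to the wider AP-1 form (TGANTCA, any middle base) were found at 32 of 189 C4-2B intervals (16.9%, against 10.1% of all C4-2B intervals) and at 23 of 146 C4-2BER intervals (15.8%, against 9.22%). Forkhead matches (TGTTTAC, a FOXA1-type site) were found at 17 and 14 intervals (9.0% and 9.59%), against 9.79% and 7.48% of all. E-box matches (CAGCTG) were found at 15.9% and 15.8%, against 13.7% and 13.9%, and GGGCGG at 11.1% and 17.8%, against 12.8% and 17.0%. ETS (CCGGAAG) and PBX and HOX matches (TGAT and AT with 2 bases between them) were found at 2.65% and 6.35% in C4-2B and at 2.74% and 4.79% in C4-2BER, against 2.57%, 6.82%, 3.07% and 6.30%. The core of the CTCF motif (CCA and GGC around NNAGNN) was matched at 2.65% and 4.11%, against 5.72% and 7.34%. No interval of the 9 windows held the strict androgen response element (half-sites AGAACA and TGTTCT with 3 bases between them), which was matched at 0.0488% of all C4-2B intervals and 0.0152% of all C4-2BER intervals. The loose element was matched at 5 C4-2B intervals (2.65%, against 1.56%) and 3 C4-2BER intervals (2.05%, against 0.585%). Besides the 3 DRAIC sites these were an intron interval of SCHLAP1 (chr2:180799181-180799587, 78 and 46 reads, a ratio of 0.784) and an interval just beyond the end of PCAT14 (chr22:23547882-23548097, 18 and 9 reads, a ratio of 0.665). Of the 69 C4-2B-only intervals 2 (2.90%), both in DRAIC, held it, against 2.84% of all C4-2B-only intervals.

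A list of 22 other long noncoding RNA genes of prostate and lineage biology was read in the same way, 1 of which (TUG1) GENCODE now lists as protein-coding. Of these, 19 had an interval in a start-site window in both lists, LINC00844 and MEG8 in C4-2B only, and LINC00261 in neither. LINC00844 held 51 reads at rank 78.7, and MEG8, a neighbour of MEG3 in the imprinted locus, held 30 reads at rank 50.8. Among the 19, the rank was higher in C4-2BER by at least 10 points at 3 genes and lower by as much at none, and the median change was 1.06. Over the 7946 long noncoding RNA genes with an interval in both lists, the shares were 15.3% higher and 15.5% lower. LINC00844 and MEG8, without a C4-2BER interval there, are not in these counts. RMST, a neuronal transcript, went from 37.5 to 72.6 (19 and 31 reads). HOTTIP, at the distal end of the HOXA cluster, went from 71.0 to 92.9 (47 and 105 reads). H19, an imprinted transcript, went from 60.0 to 72.8 (76 and 78 reads). The largest decreases in rank were at ARLNC1, an androgen-receptor-regulated transcript (93.4 to 86.4, with 119 and 72 reads), PCAT18 (73.6 to 66.7, 44 and 26 reads) and PCAT19 (65.0 to 59.4, 35 and 23 reads). By the distance between the 2 ranks, the genes of this list most like PCAT14 were PCAT18 (14.3 points), PCAT6 (15.4) and ARLNC1 (19.6).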

How the data were processed

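ATAC-seq libraries of C4-2B (2) and C4-2BER (2) were made by the authors, who trimmed and aligned paired-end reads to hg38 with Bowtie2, removed duplicates with Picard, merged the replicates of a line and called intervals with macs2 (version not given in the sources used here). The extension was 200 bp and the shift was stated as 100, without a minus sign. If reads were moved the other way, summits would be displaced from the cut sites. The deposited fold enrichment is a ratio of reads over a summit to its local background, with 1 added to both. The −log10 p and −log10 q values deposited by the authors are those of macs2, with q adjusted within the list. The −log10 q was used for alternatives, the deposited score column that repeats it was not used and the remaining deposited column gives the summit offset in bp. The fold, −log10 p and −log10 q were used as the authors deposited them.

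Each interval was counted once with its summit of highest −log10 p. Reads were recovered from the fold and the Poisson −log10 p, and a whole number solved both for 100% of summits (tolerance 0.001 in −log10 p). Depth assumes a genome size of 2700000000 bp, and the ratio of the depths does not. The step was tested on simulated data, with local backgrounds below those of many MALAT1 and NEAT1 intervals, so that test did not cover these. Genes and starts came from GENCODE release 44. Named are the 9 genes, their strongest intervals in and outside start-site windows and of 1 line only, and from the list of 22 those with an interval in 1 list only and the 3 largest changes in rank each way. Other intervals are named after their values were seen. The members, lists and motifs were chosen with earlier results of these data known. Shares carry Wilson 95% intervals and read ratios exact 95% intervals, and both cover counting error only. The alternatives were stricter or equally long lists, other flanks, windows, gene models and overlaps, and, chosen after seeing the data, other scalings and a depth correction. Python 3.11.15 with numpy 2.4.6, pandas 2.3.3 and scipy 1.17.1 was used. No column of single samples was left unused (0). Sequence on chromosome 8 is not printed. Some lineage genes, neighbouring promoters and sequences are not reported here.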

Additional observations from a re-analysis of the deposited data

How the results depend on the processing

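No paired analysis was possible because each line has a single merged list, and no replicate could be left out for the same reason. The counts of intervals and of genes with a start-site interval stayed within 1.5 times their values under the alternatives listed, from 138 to 254 intervals in C4-2B and from 98 to 193 in C4-2BER. The shared percent of C4-2B intervals (63.5) moved to 71.5 with equal numbers of top intervals and to 55.6 with 50% reciprocal overlap, which took the C4-2BER value from 84.9 to 71.9. With equal numbers of top intervals, the NEAT1 window held 2 more intervals in C4-2BER instead of fewer. Without centring on all pairs, which shifts the median log2 ratio of all pairs by −0.15, the median of the shared NEAT1 pairs was 0.948 and that of the MALAT1 and NEAT1 pairs 0.982. Centred on the pairs with most reads they were 0.904 and 0.936, so the side of 1 depends on the scaling at NEAT1 and in the joined windows. Centring on those pairs shifted the median log2 ratio of all pairs by −0.22. The medians of the other 7 genes with pairs kept their side of 1 under the 3 scalings. With C4-2B reads scaled to the C4-2BER depth, 188 of the 189 C4-2B intervals stayed. With the canonical transcript alone, 7 genes had a start-site interval in each list. The lowest summits held 8 reads (C4-2B) and 7 (C4-2BER), so weaker sites cannot be seen. Where the local background is high, as in the MALAT1 and NEAT1 windows, a site needs more reads to be called.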

Other observations

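Promoters of protein-coding genes lie in several of these windows, and their values are given here in the order C4-2B, C4-2BER. Near DRAIC, the promoters of KIF23, a kinesin of cell division, and RPLP1, a ribosomal protein, held 139 and 153 reads (C4-2B) against 130 and 158 (C4-2BER), with ratios of 1.24 (0.972 to 1.59) and 1.37 (1.09 to 1.73). The PRUNE2 promoter beyond the end of PCA3 held 144 and 91 reads, a ratio of 0.840 (0.639 to 1.10). A second pair at that promoter, chr9:76905156-76905521, held 70 and 36 reads, a ratio of 0.684 (0.444 to 1.04). In the MALAT1 and NEAT1 windows, the ratios at the promoters of LTBP3, SLC25A45 and FRMD8 lay between 1.05 and 1.20. The RTL1 promoter at the imprinted MEG3 locus had an interval in C4-2B only, with 30 reads at rank 44.2. In the PCAT1 window, POU5F1B, a retrocopy of the pluripotency gene POU5F1, had 1 promoter interval in C4-2B only (29 reads, rank 59.3) and 1 shared interval with 44 and 11 reads, a ratio of 0.333 (0.155 to 0.654).

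The C4-2B-only interval of 81 reads at chr9:76902463-76902786 in the PCA3 window had the most reads of any PCA3 interval without a counterpart, at rank 63.0.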
